A study of Arabidopsis thaliana with 39 samples.

Results

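The Arabidopsis lines at the 2 ends of the SLIM1 dosage range, a pair of SLIM1 overexpressors and a slim1 deletion line, were compared directly with each other in rosettes at 44 days after sowing (DAS). The overexpressors were 35S::SLIM1 #17 and 35S::SLIM1 #25, independent single-insertion lines in Col-0 that carry SLIM1 behind the constitutive 35S promoter, with 3 libraries each. The other side was slim1-cr, a CRISPR line in Col-0 with a deletion in SLIM1 that removes the DNA-binding domain and leaves the 3′ part of the gene, also with 3 libraries, and all of them descend from 1 edited line. The 9 libraries of these groups, taken by their labels from the 39 of the series, made up the comparison. Col-0 wild type, with 3 libraries of the same day, entered the fit and is given last, as a point of reference. Of the 33110 genes in the count table, 20499 passed the low-count filter and were tested, and every one of them belongs to the comparison.

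The plants grew on soil in long days with full nutrient supply, and each library was made from polyadenylated RNA of rosettes without stalks and reproductive organs. The study asked how the amount of SLIM1 bears on growth, senescence and nutrient remobilization. The overexpressors were germinated on plates with hygromycin, a step the labels give for these lines alone, so its effect cannot be told apart from that of the transgene. An empty-vector line was sequenced at 30 DAS only and is not compared here. Its libraries entered the fit of 30 DAS and the fit of all 39 libraries. Other days enter below where the difference at 44 DAS is set against that at 37 or 30 DAS.

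SLIM1, also called EIL3, is a transcription factor of the EIN3-like family, whose other members act in ethylene signalling, and is known as the main regulator of the response to sulfur deficiency. In a senescing leaf the photosynthetic apparatus is dismantled, chlorophyll is degraded, and nitrogen and other nutrients are moved to younger organs, under the control of NAC and WRKY transcription factors. Leaf age, abscisic acid, ethylene and nutrient status are all known to advance this program.

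The 12 libraries of 44 DAS held 38352119 to 46022274 counts each, and within a group their log2 values correlated at 0.964 or more. The first principal component took 68.1% of the variance and separated the 6 overexpressor libraries from the slim1-cr and Col-0 libraries. Library 3 of slim1-cr lay farthest out on it, and its correlation with library 2 of the same group was the 0.964 just given. The 10 most abundant genes took 4.13 to 5.12% of the counts in the overexpressors, 7.71 to 8.93% in slim1-cr and 6.19 to 7.09% in Col-0. Levels are given as CPM, the count of a gene relative to the library total after scaling by trimmed-mean factors, which allow a gene to be compared between libraries but not with other genes. Fold changes are log2 of the overexpressors over slim1-cr (log2FC), with their standard error (SE), from the mean of both lines. A gene is called when its Benjamini-Hochberg adjusted p in edgeR's quasi-likelihood test was under 0.05.

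SLIM1 itself (AT1G73730, TAIR10.1 chromosome 1, 27730031 to 27732683, minus strand) had 348, 349 and 349.5 CPM in #17 and 252, 305 and 326 CPM in #25, against 0.921, 0.656 and 1.09 CPM in slim1-cr and 19.2, 18 and 19.6 CPM in Col-0. By SLIM1 level, each library thus stood with its labelled class of overexpressor, deletion line or wild type, which does not check line, day or replicate. The overexpressors did not overlap with any other group (log2FC 8.49 ± 0.19 SE, adjusted p = 2.59e-09). Reads from the transgene and from the native gene are added together in the overexpressors. Since the deletion leaves the 3′ part in place, the low level in slim1-cr is that of what remains of the gene.

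Across all genes, 6449 were called higher and 6848 called lower in the overexpressors than in slim1-cr, together 64.9% of those tested (31.5% higher and 33.4% lower). By more than 2-fold, 2454 genes were higher and 3444 lower, and the median log2FC over all genes was 0.00. Taken alone, #17 differed from slim1-cr at 11540 genes (56.3%), 26.9% of all tested higher and 29.4% lower, and #25 at 12681 genes (61.9%), 30.4% higher and 31.4% lower. The main contrast and both lines shared 10764 calls (52.5%), and no gene was called in opposite directions in the lines, which share the slim1-cr libraries. The 6 overexpressor libraries and the 3 slim1-cr libraries did not overlap at 11505 genes (56.1%), of which 5604 (27.3%) were higher and 5901 (28.8%) lower. With library size alone in place of the trimmed-mean factors the median shifted by 0.17, and 60.5% of calls were higher rather than 48.5%.

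Set against each other, the overexpressor lines were close by calls of single genes: 2 genes were called higher in #25 than in #17 (0.00976%) and 0 lower, with 1528 genes under an unadjusted p of 0.05. DESeq2 called 36 genes higher and 84 lower in the same libraries. The larger of the 2 differences was at AT5G45360, with 54, 60.1 and 54.1 CPM in #25, against 0.31, 1.62 and 0.272 CPM in #17, 48.5, 53.6 and 44.6 CPM in slim1-cr and 50.5, 54.1 and 54.1 CPM in Col-0. Here #17 alone stood apart from every other genotype (log2FC of #25 over #17 6.22 ± 0.48 SE, adjusted p = 0.00119). The other was AT1G75170, with 26.7, 26.7 and 28.2 CPM in #25, against 15.7, 17.1 and 18.1 CPM in #17 (log2FC 0.68, adjusted p = 0.0422). Leaving out any 1 of the 12 libraries ended this second call, with 1 gene called each time. Some lists leaned in 1 direction without a call. The log2FC of #25 over #17 ran from -1.34 to -0.07 over the 20 antenna genes and from -1.01 to -0.12 over the 12 cell cycle genes. Over the 18 senescence NAC factors it ran from -0.0064 to 0.60.

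Col-0 lay between the groups at most of the genes that differed. At 9609 of the 13297 called genes (72.3%) the Col-0 mean fell between the slim1-cr mean and both line means, against 52.2% over all genes tested. The share was 69.2% among genes called higher and 75.2% among genes called lower. Against Col-0, 5073 genes (24.7%) were higher and 5288 (25.8%) lower in the overexpressors, 50.5% in all, while 1274 (6.21%) were higher and 813 (3.97%) lower in slim1-cr, 10.2% in all. A total of 809 genes were called against Col-0 in opposite directions in the overexpressors and in slim1-cr, and 364 in the same direction, where both comparisons use the same Col-0 libraries.

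**Figure D1:**
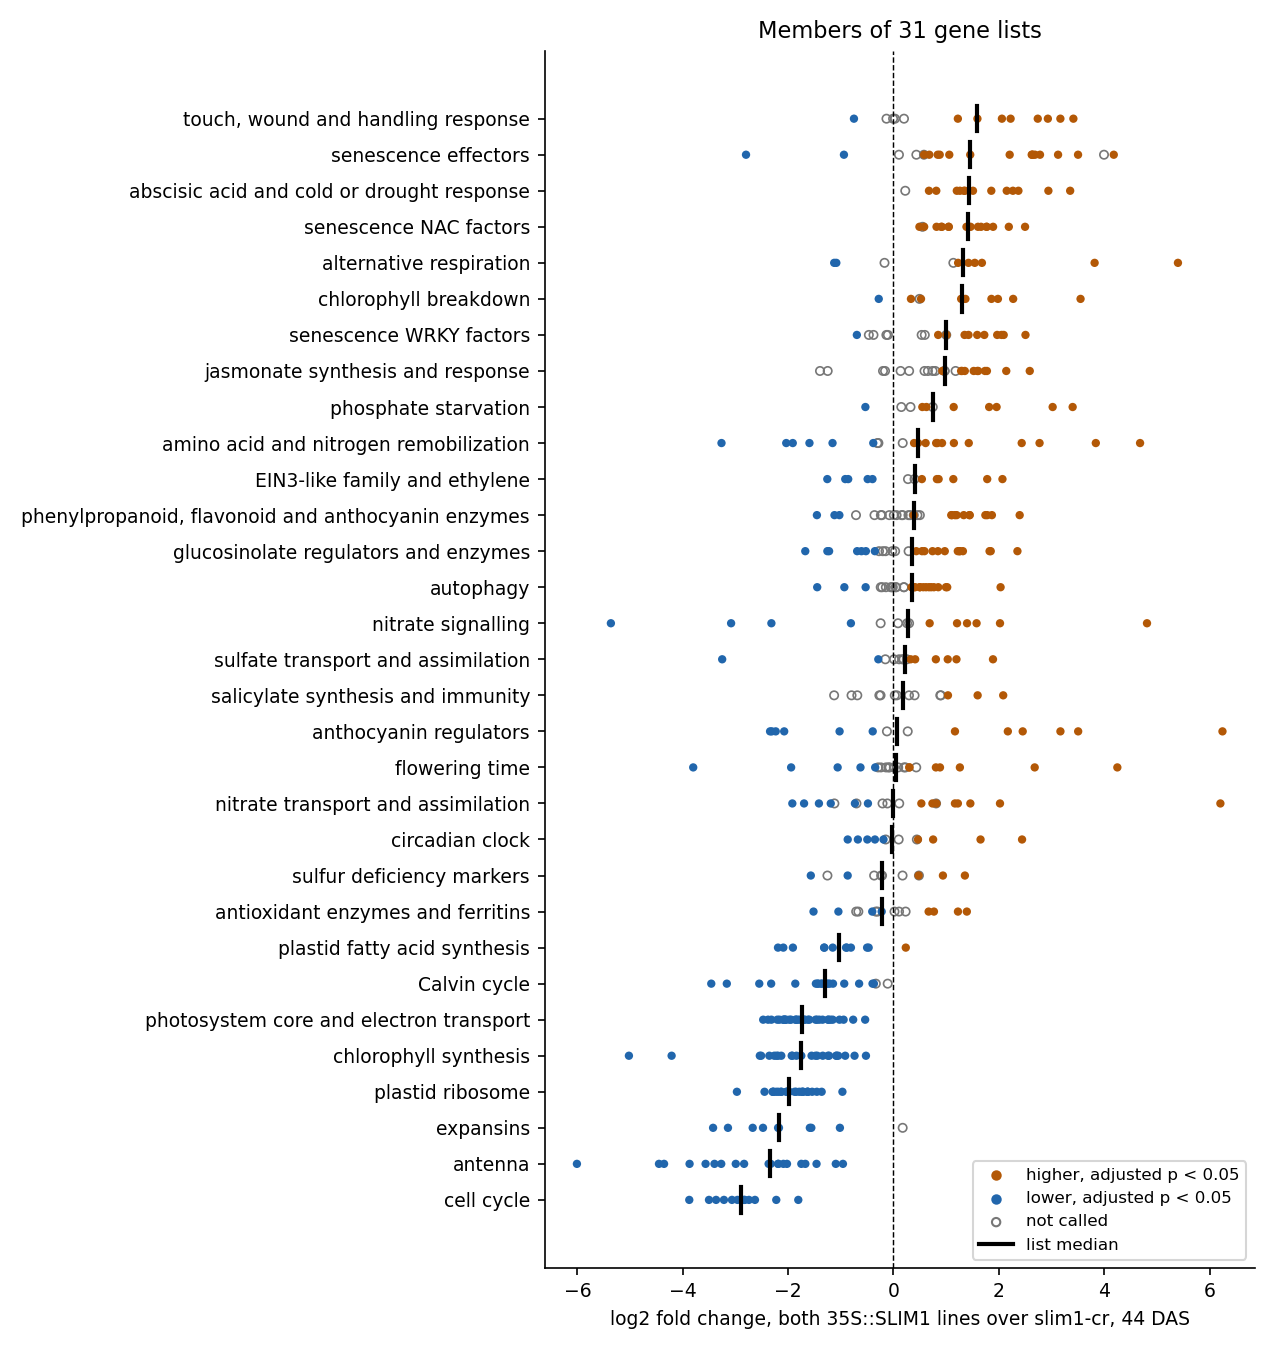
Log2 fold change of the overexpressors over slim1-cr at 44 DAS (horizontal axis) for the tested members of 31 gene lists (rows), each point 1 gene and the bar the list's median. Lists of photosynthesis, plastid ribosomes, cell cycle and expansins lie to the left of 0, with medians down to -2.90, while those of NAC factors, abscisic acid and chlorophyll breakdown lie to the right.

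Photosynthetic genes were lower in the overexpressors with almost no exception. All 20 tested genes of the light-harvesting antenna, 32 of 32 of the photosystem cores and electron transport, 28 of 28 plastid ribosomal proteins, 25 of 25 enzymes of chlorophyll synthesis and 19 of 21 of the Calvin cycle were called lower, and 0 higher. That makes 124 of 126, with a median log2FC of -1.83, where 33.4% of all tested genes were called lower. At the same 124 genes the overexpressor and slim1-cr libraries did not overlap (28.8% of all genes), and Col-0 lay between the groups at 119 of those called. The Calvin cycle members without a call were CP12-2 (log2FC -0.34, adjusted p = 0.148) and CP12-3 (log2FC -0.11, adjusted p = 0.403), small proteins that hold its enzymes in an inactive complex.

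The antenna held the largest fold change among these photosynthetic genes. LHCB1.4 (AT2G34430), a chlorophyll a/b-binding protein of photosystem II, had 178, 92.2 and 48.8 CPM in #17 and 56.9, 27.4 and 42.1 CPM in #25, against 5028, 3714 and 4204 CPM in slim1-cr and 2959.9, 3075 and 1759.7 CPM in Col-0 (log2FC -6.01 ± 0.39 SE, adjusted p = 1.04e-06). Every overexpressor library was thus far below every slim1-cr library, with Col-0 in between. LHCB1.1 had 216 to 720.4 CPM (median 383) in the overexpressors, against 9615, 7158 and 8174 CPM in slim1-cr (log2FC -4.45 ± 0.24 SE, adjusted p = 4.28e-07). LHCB2.3 had 35.3 to 104 CPM (median 66.9) in the overexpressors, against 1455, 1056 and 1466 CPM in slim1-cr (log2FC -4.36 ± 0.19 SE, adjusted p = 2.13e-07). The LHCB1 genes are near-identical copies, so the split of reads among them is uncertain; summed over the 20 antenna genes, the level was 30872, 20572 and 23969.6 CPM in #17 and 18113, 13833 and 16709 CPM in #25, against 117406, 97811 and 106966 CPM in slim1-cr and 84939, 92361 and 69039 CPM in Col-0. The least lowered antenna gene still had a log2FC of -0.96.

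In the photosystem cores the range was narrower, from -2.47 to -0.54 with a median of -1.74. PSBQA, of the oxygen-evolving complex, was the lowest of them with 123 to 226 CPM (median 166) in the overexpressors, against 1009, 861 and 1006 CPM in slim1-cr (log2FC -2.47 ± 0.14 SE, adjusted p = 4.48e-07). PSAK and PSAH2, small subunits of photosystem I, had log2FC of -2.38 and -2.32. In the Calvin cycle the largest decreases were at 2 of the small subunits of Rubisco: RBCS2B had 90.1 to 183 CPM (median 138) in the overexpressors, against 1639, 1242 and 1537 CPM in slim1-cr (log2FC -3.46 ± 0.21 SE, adjusted p = 6.83e-07), and RBCS3B, its neighbour and close copy, had 421 to 727 CPM (median 521) in the overexpressors, against 5375, 4406 and 4824 CPM in slim1-cr (log2FC -3.16 ± 0.17 SE, adjusted p = 4.41e-07). Reads of this pair cannot be assigned with certainty, but both moved the same way. GAPA-2, a subunit of the plastid glyceraldehyde phosphate dehydrogenase, followed at -2.55. Rubisco activase, RCA, differed by less, with 3774 to 5959 CPM (median 4494) in the overexpressors, against 7059, 7277 and 7275 CPM in slim1-cr (log2FC -0.65 ± 0.14 SE, adjusted p = 0.00211).

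Plastid ribosomal proteins and chlorophyll synthesis moved with the antenna. RPL15 had 36.8 to 63.8 CPM (median 47.9) in the overexpressors, against 397, 303 and 443 CPM in slim1-cr (log2FC -2.97 ± 0.16 SE, adjusted p = 4.20e-07), RPS21 a log2FC of -2.45 and RPS6 of -2.3, all 3 proteins of the plastid ribosome encoded in the nucleus. GUN4 (AT3G59400), which stimulates the magnesium chelatase at the entry to the chlorophyll branch, had 2.04, 4.39 and 1.34 CPM in #17 and 2.72, 1.6 and 2.6 CPM in #25, against 90.8, 55.3 and 92.7 CPM in slim1-cr and 46.3, 37.7 and 42.2 CPM in Col-0 (log2FC -5.02 ± 0.31 SE, adjusted p = 8.15e-07). PORA and PORB reduce protochlorophyllide in the light. PORA had 1.25 to 5.52 CPM (median 2.07) in the overexpressors, against 35.7, 17.3 and 102 CPM in slim1-cr (log2FC -4.21 ± 0.59 SE, adjusted p = 1.18e-04), and PORB had 98.1 to 215 CPM (median 177) in the overexpressors, against 798, 600.0 and 1348 CPM in slim1-cr (log2FC -2.54 ± 0.24 SE, adjusted p = 8.89e-06). Of 12 genes of plastid fatty acid synthesis, 11 were called lower (33.4% among all genes), among them the acyl carrier protein ACP4 (log2FC -1.91, adjusted p = 1.87e-06), the enoyl reductase MOD1 (log2FC -2.09, adjusted p = 2.81e-05) and the biotin carboxyl carrier BCCP2 (log2FC -2.19, adjusted p = 0.00263). The single call in the other direction, at log2FC 0.23, was lost in 9 of the 12 fits that leave out 1 library.

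**Figure D2:**
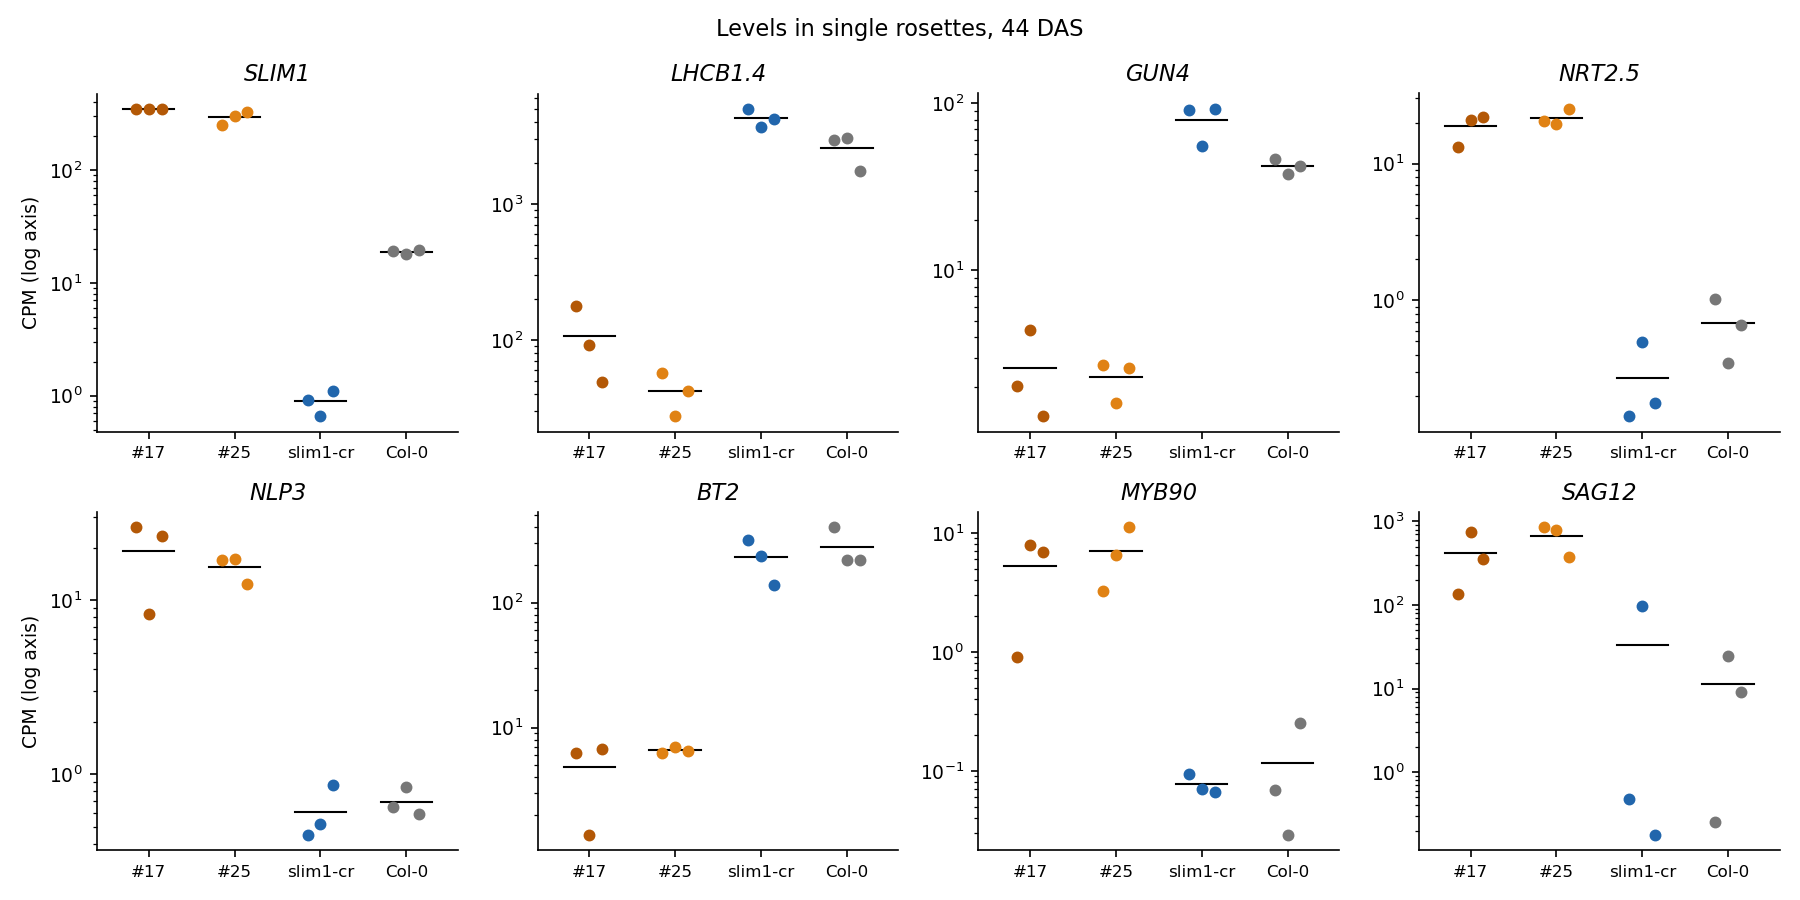
Level in each library of 44 DAS (CPM, log axis) of SLIM1, LHCB1.4, GUN4, NRT2.5, NLP3, BT2, MYB90 and SAG12 in #17, #25, slim1-cr and Col-0 (3 points each). Overexpressor and slim1-cr points do not overlap in any of these panels, and in the SAG12 panel slim1-cr library 2 lies at 98.1 CPM, far above the other slim1-cr libraries.

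Genes of chlorophyll breakdown went the opposite way to those of its synthesis. Of 12 tested, 10 were called higher and 1 lower, with a median log2FC of 1.31, against 31.5% called higher among all genes. NYE2 and NYE1 encode the dechelatases that take the magnesium out of chlorophyll. NYE2 had 46.4 to 76.2 CPM (median 68.3) in the overexpressors, against 5.43, 8.04 and 2.49 CPM in slim1-cr (log2FC 3.55 ± 0.41 SE, adjusted p = 3.41e-05), and NYE1 had 63.1 to 168 CPM (median 121) in the overexpressors, against 25.1, 30.6 and 15.6 CPM in slim1-cr (log2FC 2.27 ± 0.31 SE, adjusted p = 1.06e-04). The libraries of the groups were separate for both. NYC1, a chlorophyll b reductase, had 302 to 745 CPM (median 452) in the overexpressors, against 142, 152 and 93.9 CPM in slim1-cr (log2FC 1.86 ± 0.24 SE, adjusted p = 7.61e-05). PPH, which cleaves off the phytol chain, had 313 to 423 CPM (median 365) in the overexpressors, against 159, 162 and 105 CPM in slim1-cr (log2FC 1.37 ± 0.19 SE, adjusted p = 1.02e-04), and PAO, which opens the ring, had 196 to 299 CPM (median 258) in the overexpressors, against 109, 116 and 89.6 CPM in slim1-cr (log2FC 1.28, adjusted p = 1.09e-04). CYP89A9, which acts on the late breakdown products, was higher at log2FC 1.98. The member called lower was HCAR, the reductase of 7-hydroxymethyl chlorophyll (log2FC -0.28, adjusted p = 0.0174), and this call ended without slim1-cr library 1 or library 3 and with library size alone. CLH2 had a log2FC of 0.49 (adjusted p = 0.233).

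Of the leaf mesophyll markers, 5 of 5 were called lower (33.4% among all genes), and carbonic anhydrase CA1 had 73.1 to 177 CPM (median 124) in the overexpressors, against 2236, 2012 and 1917 CPM in slim1-cr (log2FC -4.09 ± 0.19 SE, adjusted p = 2.47e-07). Their summed level was 16523, 11455 and 13431 CPM in #17 and 10345, 8129.8 and 9681 CPM in #25, against 44821, 39508 and 42988 CPM in slim1-cr and 35409.5, 37488 and 27629 CPM in Col-0. In bulk rosettes, fewer mesophyll cells and less of these RNAs per cell cannot be told apart.

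Genes of growth were lower as well. All 12 tested cell cycle genes were called lower, with a median log2FC of -2.90, the lowest of the 31 lists, and with no overlap of the groups at any of them. Of all tested genes, 33.4% were called lower and 28.8% were lower without overlap. KN, the syntaxin of the dividing cell plate, had 0.726 to 3.61 CPM (median 1.48) in the overexpressors, against 23.5, 16.6 and 42.2 CPM in slim1-cr (log2FC -3.88 ± 0.54 SE, adjusted p = 1.21e-04). PCNA1, the sliding clamp of DNA replication, had 0.228 to 1.27 CPM (median 0.659) in the overexpressors, against 6.97, 5.79 and 11.9 CPM in slim1-cr (log2FC -3.50 ± 0.49 SE, adjusted p = 1.16e-04). PRL, a subunit of the replicative helicase, had 0.376 to 2.42 CPM (median 1.21) in the overexpressors, against 10.8, 8.67 and 18.9 CPM in slim1-cr (log2FC -3.37 ± 0.55 SE, adjusted p = 3.35e-04). Their sum was 13.4, 29.6 and 27.3 CPM in #17 and 27.2, 12.8 and 13.1 CPM in #25, against 121, 102 and 210.4 CPM in slim1-cr and 123, 51.2 and 73.4 CPM in Col-0, so that slim1-cr library 3 was the highest of all 12. Of 10 expansins, which loosen the cell wall, 9 were called lower. EXPA1 had 13.9 to 43.4 CPM (median 21.6) in the overexpressors, against 218, 145 and 272 CPM in slim1-cr (log2FC -3.14 ± 0.35 SE, adjusted p = 2.85e-05), EXPA11 a log2FC of -3.43 and EXPA3 of -2.67, while EXPA16 had a log2FC of 0.17 (adjusted p = 0.585).

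**Figure D3:**
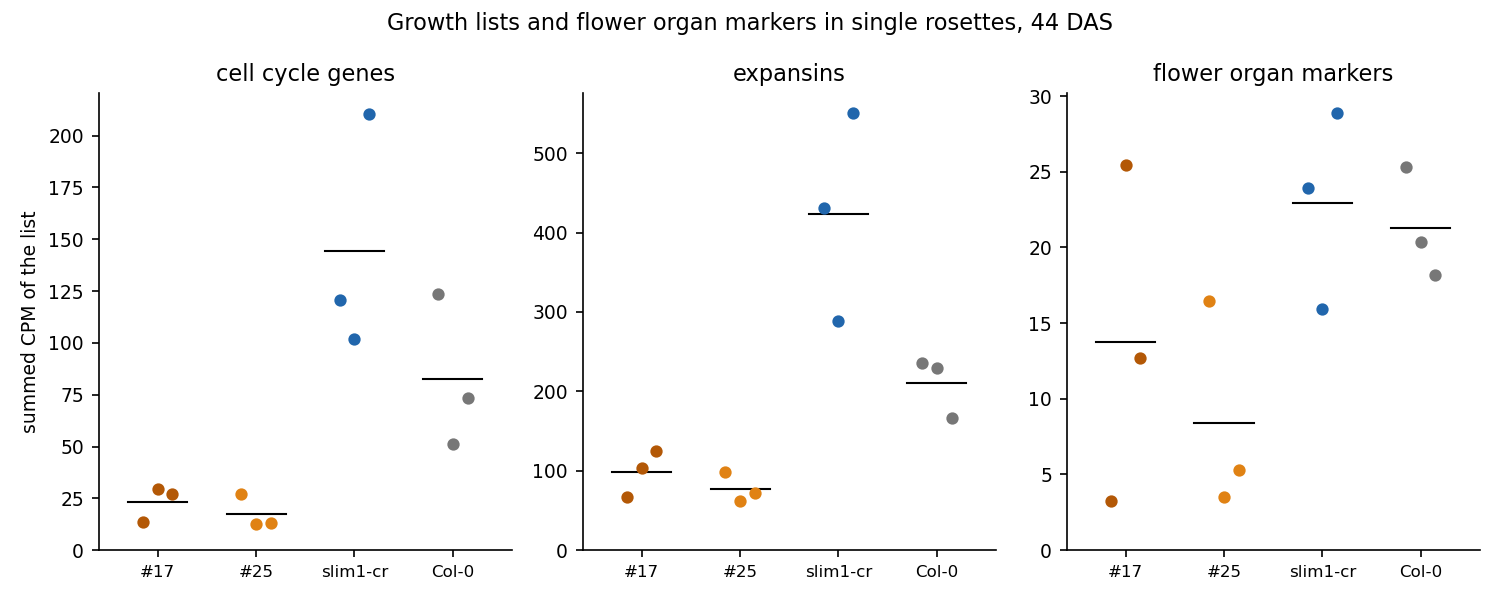
Summed level (CPM) in each library of 44 DAS of 12 cell cycle genes, 10 expansins and 9 flower organ markers, for #17, #25, slim1-cr and Col-0 (3 points each). Cell cycle sums are 12.8 to 29.6 CPM in the overexpressors and 102.0 to 210.4 CPM in slim1-cr, and the flower organ sums of the groups overlap.

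Markers of other cell types gave no common direction. For all of them, the shares among all genes were 31.5% called higher and 33.4% called lower. The 9 flower organ genes summed to 3.25, 25.4 and 12.7 CPM in #17 and 16.5, 3.51 and 5.31 CPM in #25, against 24, 15.9 and 28.9 CPM in slim1-cr and 25.3, 20.3 and 18.2 CPM in Col-0. The ranges overlapped, and 2 of the 9 genes were called lower, AP1 (log2FC -1.63, adjusted p = 0.0332) and SEP1 (log2FC -1.41, adjusted p = 0.0105). The AP1 call ended in 5 of the 12 fits that leave out a library, with adjusted p up to 0.113 without slim1-cr library 3, and also with library size alone (adjusted p = 0.0604) and with the 9 libraries alone (adjusted p = 0.0521). TFL1, a marker of the shoot meristem, had 0.547 to 1.09 CPM (median 0.752) in the overexpressors, against 5.2, 3.77 and 4.89 CPM in slim1-cr (log2FC -2.58 ± 0.25 SE, adjusted p = 1.08e-05), while STM (log2FC -0.27, adjusted p = 0.259) and KNAT1 (log2FC -0.27, adjusted p = 0.457) did not pass the test. Their part in the lower cell cycle level was not tested. Among xylem markers, the proteases XCP1 (-2.75) and XCP2 (-1.62) were lower in log2FC and the secondary-wall cellulose synthases CESA4 (1.14) and CESA7 (1.26) higher, and both of these calls ended without slim1-cr library 1 (adjusted p = 0.0644 for CESA4 and 0.0788 for CESA7). Of 3 trichome markers 2 were called lower, the regulators GL1 (log2FC -4.24) and GL2 (-1.36). GL1 had only 0 to 4 counts in each overexpressor library. Of 3 guard cell markers only the factor FAMA was called lower (-0.55), and of 2 phloem markers only the sucrose carrier SUC2 higher (0.55). Of the pollen markers, VGD1 was called higher (log2FC 2.39, adjusted p = 0.0167) and TUA1 lower (log2FC -0.37, adjusted p = 0.0327), and of the seed storage genes SESA1, the only one tested, was lower (log2FC -1.72, adjusted p = 0.00906). These 3 calls ended without slim1-cr library 2, at adjusted p = 0.0599 for VGD1, 0.1585 for TUA1 and 0.0581 for SESA1, and other libraries also ended those of VGD1 and TUA1. No root hair marker reached the count filter.

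Transcription factors of leaf senescence stood higher in the overexpressors. Of 18 senescence NAC factors, 17 were called higher and 0 lower, with a median log2FC of 1.41, against 31.5% of all genes. NAP, a NAC factor that promotes chlorophyll breakdown and abscisic acid synthesis, had 39.6, 107 and 65.7 CPM in #17 and 96.4, 113 and 80.7 CPM in #25, against 20.0, 12.4 and 11.5 CPM in slim1-cr and 12.2, 19.7 and 25 CPM in Col-0 (log2FC 2.5 ± 0.35 SE, adjusted p = 1.29e-04). NAC6, also called ORE1 and a promoter of age-dependent cell death, had 30.7 to 62.2 CPM (median 43.6) in the overexpressors, against 18.8, 8.55 and 10.5 CPM in slim1-cr (log2FC 1.77 ± 0.30 SE, adjusted p = 4.76e-04). NAC019 had 106 to 221 CPM (median 196) in the overexpressors, against 43.5, 56 and 13.9 CPM in slim1-cr (log2FC 2.19 ± 0.41 SE, adjusted p = 7.75e-04), and NAC047 a log2FC of 1.89. At all of these the overexpressor libraries lay above the slim1-cr libraries. The exception among the 18, ATAF2, had a log2FC of 0.55 (adjusted p = 0.0797).

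Senescence WRKY factors were less uniform, with 10 of 18 called higher and 1 lower, WRKY42 (log2FC -0.70), and a median of 1.00. The shares among all genes were 31.5% higher and 33.4% lower. WRKY75 had 12.7 to 34.5 CPM (median 22) in the overexpressors, against 5.53, 5.08 and 0.823 CPM in slim1-cr (log2FC 2.51 ± 0.44 SE, adjusted p = 5.62e-04), and WRKY45 had 22.8 to 41.3 CPM (median 30.2) in the overexpressors, against 9.28, 8.15 and 3.63 CPM in slim1-cr (log2FC 2.09 ± 0.27 SE, adjusted p = 7.09e-05). Both are positive regulators of leaf senescence. WRKY55 had 1.14 to 9.26 CPM (median 2.35) in the overexpressors, against 0.969, 1.1 and 0.489 CPM in slim1-cr (log2FC 2.05 ± 0.64 SE, adjusted p = 0.0152), a call that ended without slim1-cr library 3 (adjusted p = 0.0610). Not called were WRKY54 (log2FC -0.47, adjusted p = 0.258) and WRKY70 (log2FC -0.38, adjusted p = 0.347), which delay senescence, and WRKY6 (log2FC 0.53, adjusted p = 0.062). The WRKY42 call was lost in 5 of the 12 fits that leave out a library (without slim1-cr library 1 or 3, #17 library 1 or 2, or #25 library 2), and 2 genes were called lower without #25 library 1.

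Effectors of senescence followed the NAC factors, with 15 of 21 called higher, 2 lower and a median log2FC of 1.46. Over all genes, 31.5% were called higher and 33.4% lower. BGLU30, a beta-glucosidase known from dark-induced senescence, had 21.2 to 221 CPM (median 72.8) in the overexpressors, against 2.67, 9.53 and 0.756 CPM in slim1-cr (log2FC 4.18 ± 0.78 SE, adjusted p = 7.87e-04). The ribonuclease RNS1 had 10.6 to 30.4 CPM (median 20.2) in the overexpressors, against 1.96, 1.62 and 1.69 CPM in slim1-cr (log2FC 3.50 ± 0.40 SE, adjusted p = 3.16e-05). SAG13 had 129 to 343 CPM (median 214) in the overexpressors, against 22.1, 43.2 and 6.9 CPM in slim1-cr (log2FC 3.12 ± 0.53 SE, adjusted p = 4.56e-04). PES1, which esterifies the phytol set free from chlorophyll, the sugar exporter SWEET15, the vacuolar protease GAMMA-VPE and the nuclease BFN1 had log2FC of 2.69, 2.78, 2.65 and 2.62. SAG18 rose less, with 30.5 to 33.9 CPM (median 32.3) in the overexpressors, against 21.6, 24.1 and 19 CPM in slim1-cr (log2FC 0.58 ± 0.10 SE, adjusted p = 3.95e-04). The members called lower were DIN10 (log2FC -2.80, adjusted p = 9.92e-06) and SEN1 (log2FC -0.94, adjusted p = 0.00971), genes known to respond to darkness and sugar starvation, and 1 of these calls was left without slim1-cr library 1.

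SAG12, the cysteine protease most used as a senescence marker, did not pass the threshold, and its slim1-cr libraries spread widely. It had 136, 749 and 358 CPM in #17 and 849, 779.6 and 371 CPM in #25, against 0.473, 98.1 and 0.178 CPM in slim1-cr and 0.255, 24.6 and 9.16 CPM in Col-0 (log2FC 4.00 ± 1.75 SE, adjusted p = 0.0654). Library 2 of slim1-cr was far above the other 2, yet all 6 overexpressor libraries were above it. Without this library the log2FC was 10.66 (adjusted p = 0.000713). DESeq2 on all 12 libraries gave 4.00 (adjusted p = 0.0133) and 1 fit of all 39 libraries gave 3.97 (adjusted p = 0.0364).

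Among 28 autophagy genes, which build the vesicles that carry cell material to the vacuole, 15 were called higher and 3 lower, against 31.5% higher and 33.4% lower among all genes, with a small median of 0.35. ATG8B, a ubiquitin-like protein of the vesicle membrane, had 45.7 to 62 CPM (median 53.4) in the overexpressors, against 14.1, 14.1 and 10.9 CPM in slim1-cr (log2FC 2.03 ± 0.14 SE, adjusted p = 1.34e-06). Its paralogs did not move alike: ATG8G had a log2FC of 1.02, APG8A of 0.85 and ATG8H of 0.72, while ATG8E had -0.93 and ATG8F -0.24 (adjusted p = 0.0671). The ATG8H call ended without slim1-cr library 3 (adjusted p = 0.0888), and without this library 5 autophagy genes were called lower. ATG18D was the lowest with 2.35 to 3.3 CPM (median 2.85) in the overexpressors, against 7.8, 8.93 and 6.07 CPM in slim1-cr (log2FC -1.45 ± 0.15 SE, adjusted p = 1.36e-05).

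In nitrogen remobilization, 12 of 21 genes were called higher and 6 lower, against 31.5% higher and 33.4% lower among all genes. Among cytosolic glutamine synthetases, which prepare nitrogen for export, GLN1;4 had 207, 308 and 279.7 CPM in #17 and 233, 300.0 and 356 CPM in #25, against 16.7, 27.9 and 14 CPM in slim1-cr (log2FC 3.84 ± 0.29 SE, adjusted p = 2.43e-06), and GLN1;1 had 742 to 1145 CPM (median 1046) in the overexpressors, against 171, 252 and 121 CPM in slim1-cr (log2FC 2.43 ± 0.23 SE, adjusted p = 9.79e-06). Enzymes of primary assimilation in the plastid were lower, glutamine synthetase GS2 with 392 to 517 CPM (median 434) in the overexpressors, against 1473, 1223 and 1345 CPM in slim1-cr (log2FC -1.6 ± 0.13 SE, adjusted p = 4.25e-06) and the ferredoxin-dependent glutamate synthase GLU1 at log2FC -1.16. Asparagine synthetases were lower too: ASN2 had 6.29 to 11.4 CPM (median 7.15) in the overexpressors, against 101, 55.5 and 69.6 CPM in slim1-cr (log2FC -3.27 ± 0.23 SE, adjusted p = 1.90e-06), and ASN1 a log2FC of -2.04. PYD4, of pyrimidine breakdown, had 10.9 to 25.5 CPM (median 17.2) in the overexpressors, against 0.496, 1.1 and 0.4 CPM in slim1-cr and 8.62, 42.7 and 33.1 CPM in Col-0 (log2FC 4.68 ± 0.62 SE, adjusted p = 8.34e-05). Of the Col-0 libraries, 2 lay above every overexpressor library, and all 3 above every slim1-cr library. The urea transporter DUR3 had 99.1 to 143 CPM (median 135) in the overexpressors, against 17.5, 28.1 and 9.39 CPM in slim1-cr (log2FC 2.77 ± 0.30 SE, adjusted p = 2.16e-05).

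Of 20 nitrate transport and assimilation genes, 8 were called higher and 6 lower, with a median of 0.00, shares near the 31.5% higher and 33.4% lower among all genes. NRT2.5, a high-affinity carrier expressed in nitrogen-starved plants, had 13.3, 20.8 and 22.1 CPM in #17 and 20.4, 19.3 and 25.2 CPM in #25, against 0.142, 0.492 and 0.178 CPM in slim1-cr and 1.02, 0.348 and 0.663 CPM in Col-0 (log2FC 6.21 ± 0.43 SE, adjusted p = 1.56e-06). Every overexpressor library was above every other library. NRT1.7, which loads nitrate from old leaves into the phloem, had 349 to 526 CPM (median 457) in the overexpressors, against 96.8, 154 and 74.5 CPM in slim1-cr (log2FC 2.02 ± 0.25 SE, adjusted p = 5.53e-05). NRT1.5, known for xylem loading, had 26.3 to 58.2 CPM (median 36.4) in the overexpressors, against 14.6, 12.6 and 15.4 CPM in slim1-cr (log2FC 1.46 ± 0.29 SE, adjusted p = 0.00121). CLC-A, the exchanger that stores nitrate in the vacuole, was lower, with 42.3 to 88.3 CPM (median 50.6) in the overexpressors, against 209.9, 247 and 172 CPM in slim1-cr (log2FC -1.92 ± 0.25 SE, adjusted p = 7.20e-05), and so was NRT1.11 at log2FC -1.70. The nitrate reductases NIA1 (log2FC -0.21, adjusted p = 0.579) and NIA2 (log2FC -0.70, adjusted p = 0.0988) overlapped between the groups and did not pass the test.

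Of 14 nitrate signalling genes, 6 were called higher and 4 lower, also near the shares among all genes. The NIN-like factor NLP3 had 26.2, 8.31 and 23.3 CPM in #17 and 16.9, 17.3 and 12.5 CPM in #25, against 0.449, 0.515 and 0.867 CPM in slim1-cr and 0.65, 0.841 and 0.594 CPM in Col-0 (log2FC 4.81 ± 0.43 SE, adjusted p = 6.32e-06). NLP8 and NLP5 were higher at log2FC 2.02 and 1.58, NLP7, the main nitrate sensor of the family, had 0.09 (adjusted p = 0.499), and NLP6 was lower at -0.81. BT2 (AT3G48360), a BTB protein that limits nitrate uptake, had 6.26, 1.39 and 6.76 CPM in #17 and 6.25, 6.93 and 6.54 CPM in #25, against 318, 238 and 138 CPM in slim1-cr and 401, 221 and 218 CPM in Col-0 (log2FC -5.37 ± 0.42 SE, adjusted p = 3.13e-06). LBD39 and LBD38, repressors of nitrate and anthocyanin genes, were lower: LBD39 had 2.12 to 4.9 CPM (median 3.57) in the overexpressors, against 27.3, 32.4 and 28.4 CPM in slim1-cr (log2FC -3.08 ± 0.25 SE, adjusted p = 4.20e-06), and LBD38 a log2FC of -2.32. The third of these repressors, LBD37, had a log2FC of 0.30 (adjusted p = 0.411).

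Regulators of anthocyanin synthesis went both ways. Of 14 tested, 6 were called higher and 6 lower, against 31.5% higher and 33.4% lower among all genes (median log2FC 0.07). MYB75 and MYB90 (PAP1 and PAP2), the MYB activators of the pathway, were both higher. MYB90 had 0.907, 7.9 and 6.92 CPM in #17 and 3.26, 6.56 and 11.1 CPM in #25, against 0.0945, 0.0703 and 0.0667 CPM in slim1-cr and 0.0697, 0.029 and 0.251 CPM in Col-0 (log2FC 6.25 ± 0.94 SE, adjusted p = 1.91e-04). MYB75 had 13.5 to 30.6 CPM (median 19.6) in the overexpressors, against 2.48, 1.83 and 2.4 CPM in slim1-cr (log2FC 3.17 ± 0.33 SE, adjusted p = 1.85e-05). Their relatives MYB113 (2.45) and MYB114 (2.17) were also called higher, and these 4 are close paralogs, so their reads may be shared in part. TT2, the MYB factor of seed coat tannins, was called higher at a level under 1 CPM in every library (log2FC 3.51, adjusted p = 0.00155). The repressor MYBL2 was lower (log2FC -1.02, adjusted p = 1.52e-04), as were the bHLH factor EGL3 (log2FC -2.34, adjusted p = 0.0015) and the flavonol regulators MYB12 (log2FC -2.24, adjusted p = 0.00971) and MYB111 (log2FC -2.31, adjusted p = 0.00652), both at 2.05 CPM or less in every library of these groups.

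Of 29 enzymes of the phenylpropanoid, flavonoid and anthocyanin route, 12 were called higher and 3 lower, with a median of 0.38. The shares among all genes were 31.5% higher and 33.4% lower. TT4, chalcone synthase, had 85.8 to 209.9 CPM (median 113) in the overexpressors, against 45.7, 22.2 and 49.4 CPM in slim1-cr (log2FC 1.74 ± 0.48 SE, adjusted p = 0.00779). UGT73B2, a flavonoid glucosyltransferase, had 40.7 to 83.1 CPM (median 47.6) in the overexpressors, against 13.8, 11.4 and 5.43 CPM in slim1-cr (log2FC 2.4 ± 0.28 SE, adjusted p = 4.15e-05). Late steps were among the genes called higher, such as TT19 (log2FC 1.87, adjusted p = 0.00145), a transferase needed to store anthocyanin, UF3GT (log2FC 1.78, adjusted p = 0.011) and DFR (log2FC 1.45, adjusted p = 0.0196). The first enzymes of the route did not pass the test, with log2FC of 0.31 for PAL1, 0.17 for PAL2 and -0.36 for C4H, nor did flavonol synthase FLS1 (log2FC -0.71, adjusted p = 0.349). The vacuolar transporter ABCC2 had 116 to 143 CPM (median 129) in the overexpressors, against 56.5, 57.7 and 54.2 CPM in slim1-cr (log2FC 1.2 ± 0.10 SE, adjusted p = 3.47e-06).

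The sulfur deficiency markers, the classical readout of SLIM1, did not separate the groups in 1 direction. Of 11 tested, 3 were called higher and 2 lower, against 31.5% higher and 33.4% lower among all genes, with a median log2FC of -0.22. LSU3, of a small family of proteins that accumulate under low sulfur, had 45.5, 65.6 and 49.2 CPM in #17 and 57.7, 48.6 and 75.3 CPM in #25, against 84.6, 78.8 and 56.7 CPM in slim1-cr and 6.01, 5.89 and 5.28 CPM in Col-0 (log2FC -0.37 ± 0.17 SE, adjusted p = 0.0727). LSU1 had 14.7, 23.6 and 16 CPM in #17 and 28.2, 21.3 and 28.2 CPM in #25, against 33.7, 21.9 and 20.8 CPM in slim1-cr and 1.49, 2.52 and 2.01 CPM in Col-0 (log2FC -0.23 ± 0.21 SE, adjusted p = 0.34). For both, the overexpressors and slim1-cr overlapped, and every library of each lay far above every Col-0 library. LSU1, LSU3 and LSU4 were 3 of the 7 genes that exceeded Col-0 by more than 4-fold in both the overexpressors and slim1-cr; the others with a gene symbol were MLP34 and LAC3. LSU4 was called higher in the overexpressors than in slim1-cr, with 3.39, 6.25 and 3.14 CPM in #17 and 5.62, 7.22 and 7.36 CPM in #25, against 3.09, 3.49 and 1.8 CPM in slim1-cr and 0.534, 0.812 and 0.571 CPM in Col-0 (log2FC 0.94 ± 0.28 SE, adjusted p = 0.0118). The lowest pair of overexpressor libraries fell inside the slim1-cr range. LSU2 had a log2FC of 0.48 (adjusted p = 0.0698).

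**Figure D4:**
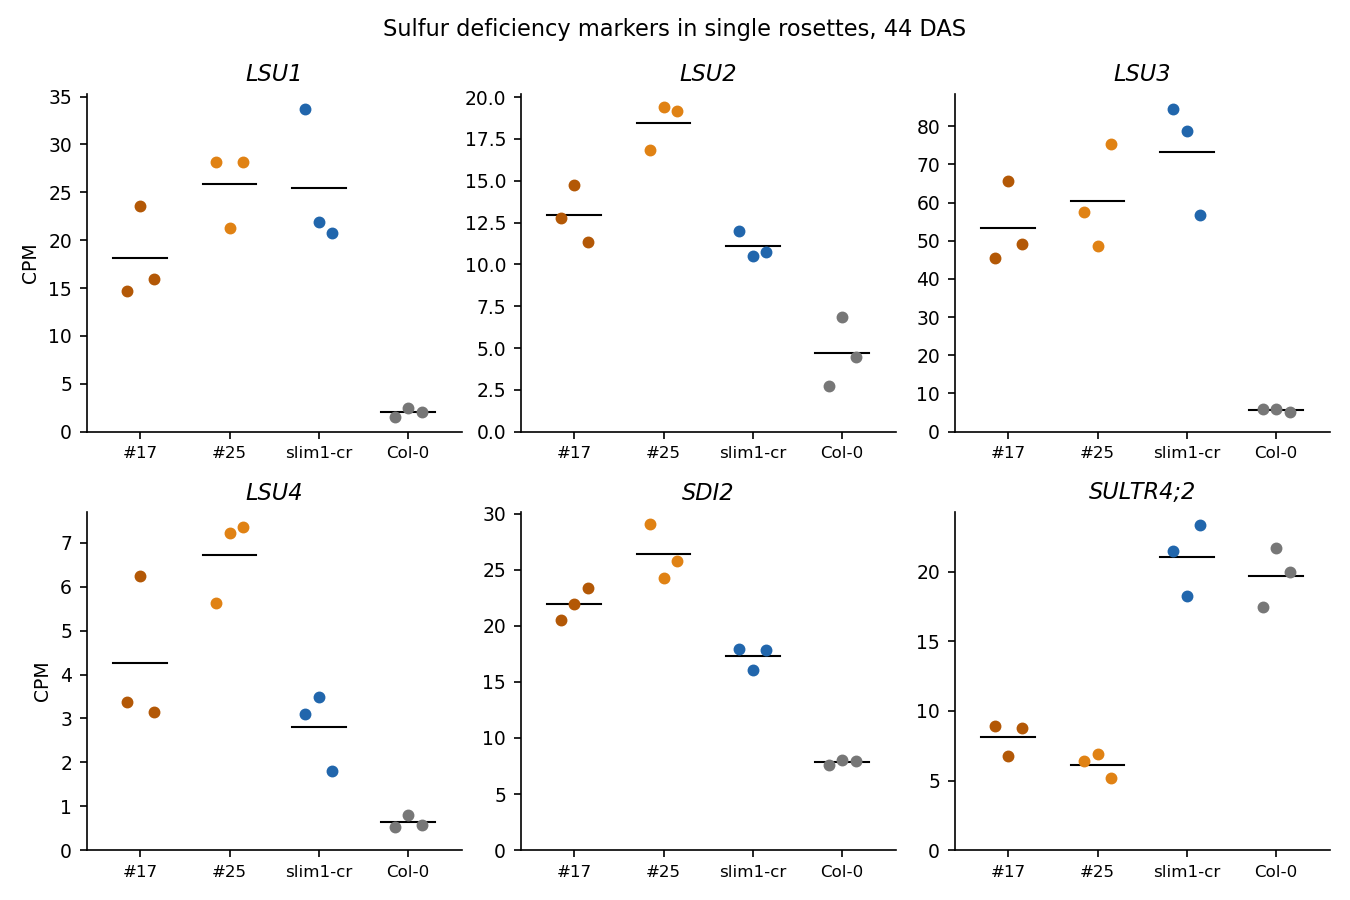
Level in each library of 44 DAS (CPM, linear axis from 0) of LSU1, LSU2, LSU3, LSU4, SDI2 and SULTR4;2 in #17, #25, slim1-cr and Col-0 (3 points each). LSU1 and LSU3 are at similar levels in the overexpressors and slim1-cr and low in Col-0, and SULTR4;2 is lower in the overexpressors than in the other 2 genotypes.

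SDI1 and SDI2 are repressors of glucosinolate synthesis that low sulfur induces. SDI1 had 13 to 20.6 CPM (median 17.8) in the overexpressors, against 6.52, 7.66 and 5.78 CPM in slim1-cr (log2FC 1.36 ± 0.20 SE, adjusted p = 1.46e-04), and SDI2 had 20.5 to 29.1 CPM (median 23.8) in the overexpressors, against 17.9, 16.1 and 17.8 CPM in slim1-cr and 7.57, 8.03 and 7.95 CPM in Col-0 (log2FC 0.48 ± 0.08 SE, adjusted p = 4.08e-04). SULTR4;2, which releases sulfate from the vacuole, was lower, with 5.15 to 8.92 CPM (median 6.83) in the overexpressors, against 21.5, 18.3 and 23.4 CPM in slim1-cr and 17.4, 21.7 and 20.0 CPM in Col-0 (log2FC -1.57 ± 0.13 SE, adjusted p = 3.35e-06). In Col-0 it was near the slim1-cr level, unlike the LSU genes. The vascular transporter SULTR2;1 was also lower (log2FC -0.87, adjusted p = 9.86e-05). SHM7 (log2FC 0.17, adjusted p = 0.18), GGCT2;1 (log2FC -0.22, adjusted p = 0.293) and BGLU28 (log2FC -1.25, adjusted p = 0.112), other genes known from sulfur-starved plants, did not pass the test. SULTR1;1, the root uptake transporter, was under the count filter.

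Of 14 genes of sulfate transport and assimilation, 6 were called higher and 2 lower, against 31.5% higher and 33.4% lower among all genes. SULTR3;5, a transporter that helps to move sulfate from root to shoot, had 0.16 to 1.05 CPM (median 0.662) in the overexpressors, against 3.5, 7.71 and 6.83 CPM in slim1-cr and 8.06, 5.86 and 4.34 CPM in Col-0 (log2FC -3.25 ± 0.47 SE, adjusted p = 1.46e-04). SULTR4;1, the paralog of SULTR4;2, went the other way, with 66.6 to 112 CPM (median 95.1) in the overexpressors, against 41.3, 45.8 and 35.1 CPM in slim1-cr (log2FC 1.2 ± 0.16 SE, adjusted p = 8.34e-05). The ATP sulfurylases divided: APS4 had 217 to 352 CPM (median 304) in the overexpressors, against 75.4, 94.6 and 70.5 CPM in slim1-cr (log2FC 1.89 ± 0.25 SE, adjusted p = 8.99e-05), APS3 was higher (log2FC 1.03, adjusted p = 0.00243), APS2 was lower (log2FC -0.29, adjusted p = 0.022) and APS1 had a log2FC of 0.11 (adjusted p = 0.594). The APS2 call ended without slim1-cr library 1, slim1-cr library 3 or #17 library 1, which leaves 1 gene called lower. The APS reductases APR1 (-0.15), APR2 (0.17) and APR3 (0.01) had log2FC that did not pass the test, and their Col-0 levels were below those of both other groups, for example 62.2, 61.6 and 69.6 CPM for APR1.

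SLIM1 is known to bind a TEIL-type element, here called TEBS, of which 8 spellings were searched (ATGAACCT, ATGAATCT, ATGTACCT, ATGTATCT, ACGAACCT, ACGAATCT, ACGTACCT and ACGTATCT), and the sulfur-responsive element SURE, GAGAC, was searched beside it. On both strands of the window from 250 bases before to 50 bases after the gene start, TEBS was present in 6.69% of 20478 promoters of tested genes and SURE in 32.4%. The shares were 6.56% for TEBS and 31.4% for SURE among genes called higher, and 6.97% and 33.3% among genes called lower. GAGAC can share its last bases with a TEBS spelling that starts with AC. Of 14 anthocyanin regulators 6 held TEBS, and of 11 sulfur deficiency markers 4 did, SULTR4;2, LSU3, LSU4 and SHM7. These were the largest TEBS shares among the 31 gene lists, and the next largest was 14.3%. In sulfate transport and assimilation 2 of 14 promoters held TEBS, and in the EIN3-like and ethylene list 0 of 13. Enrichment of the element in a list was not tested. The 250 bases before the start are printed below, 5′ to 3′ in the direction of the gene, for 5 called genes with a TEBS match, 3 from the sulfur lists and 2 anthocyanin or flavonol regulators, since they went in both directions. Sequences are RefSeq, TAIR10.1, and capitals mark TEBS or SURE on either strand.
LSU4, higher in the overexpressors, chr5:8441365-8441614, minus strand: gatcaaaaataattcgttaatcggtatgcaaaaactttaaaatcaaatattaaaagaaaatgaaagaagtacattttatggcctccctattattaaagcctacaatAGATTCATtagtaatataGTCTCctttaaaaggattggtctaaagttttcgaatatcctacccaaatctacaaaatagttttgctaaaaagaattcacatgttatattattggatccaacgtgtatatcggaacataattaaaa
SULTR3;5, lower, chr5:6617048-6617297, minus strand: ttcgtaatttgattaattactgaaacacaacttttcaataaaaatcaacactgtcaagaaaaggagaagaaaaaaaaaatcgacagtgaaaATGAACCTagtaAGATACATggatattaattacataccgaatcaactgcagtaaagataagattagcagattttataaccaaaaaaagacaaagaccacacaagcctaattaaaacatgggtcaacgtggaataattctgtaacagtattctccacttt
SULTR4;1, higher, chr5:4359693-4359942, minus strand: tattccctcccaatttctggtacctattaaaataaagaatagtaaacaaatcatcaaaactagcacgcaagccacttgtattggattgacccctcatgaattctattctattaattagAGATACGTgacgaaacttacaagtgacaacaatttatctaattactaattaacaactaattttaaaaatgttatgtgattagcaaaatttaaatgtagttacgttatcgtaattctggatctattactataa
MYB75, higher, chr1:21235293-21235542, minus strand: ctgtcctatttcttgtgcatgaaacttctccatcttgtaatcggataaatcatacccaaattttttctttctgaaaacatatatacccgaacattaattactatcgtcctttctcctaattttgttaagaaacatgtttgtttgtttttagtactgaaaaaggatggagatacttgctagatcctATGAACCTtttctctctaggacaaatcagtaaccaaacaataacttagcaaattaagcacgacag
MYB12, lower, chr2:19476076-19476325, plus strand: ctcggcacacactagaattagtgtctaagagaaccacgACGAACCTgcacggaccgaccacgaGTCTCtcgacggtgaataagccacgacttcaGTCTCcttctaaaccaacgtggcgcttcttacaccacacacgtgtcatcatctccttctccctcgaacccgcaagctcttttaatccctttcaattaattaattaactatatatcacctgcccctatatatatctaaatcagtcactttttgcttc
The first base of the match lay at -144 in LSU4, -159 and -147 in SULTR3;5, -132 in SULTR4;1, -65 in MYB75 and -212 in MYB12. A match is a stretch of letters in the window, and binding was not measured in these libraries.

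Glucosinolates hold a large share of leaf sulfur, and 13 of their 26 regulators and enzymes were called higher and 7 lower (4 lower without slim1-cr library 1 or in 1 fit of all 39 libraries). Over all genes the shares were 31.5% higher and 33.4% lower. The indole genes given here, chosen for the largest fold changes of the list, were higher, and other members of that branch are not given. CYP83B1, the committed oxidase of the indole branch, had 1182 to 1679 CPM (median 1309.5) in the overexpressors, against 350.0, 546 and 272 CPM in slim1-cr (log2FC 1.82 ± 0.22 SE, adjusted p = 5.04e-05). The regulators MYB51 and MYB122 followed. MYB51 had 48.8 to 78.1 CPM (median 55.1) in the overexpressors, against 19, 15.1 and 14.2 CPM in slim1-cr (log2FC 1.85 ± 0.16 SE, adjusted p = 6.61e-06), and MYB122 a log2FC of 2.35 at under 1 CPM in every library. Genes of the aliphatic branch differed among themselves, with MYB29 (-1.22), MYB76 (-1.26) and MAM1 (-0.61) lower and MYB28 (0.43), MAM3 (1.26) and CYP79F2 (0.84) higher in log2FC. The lowest log2FC of the whole list was -1.67, at a member not named here.

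Among hormone pathways, that of abscisic acid and its cold and drought targets was the most uniform, with 13 of 14 called higher, 0 lower and a median log2FC of 1.43. Over all genes, 31.5% were called higher and 33.4% lower. NCED3, the rate-limiting dioxygenase of abscisic acid synthesis, had 26.8 to 61.1 CPM (median 45.6) in the overexpressors, against 7.96, 11.5 and 5.81 CPM in slim1-cr (log2FC 2.37 ± 0.21 SE, adjusted p = 5.65e-06), and its paralogs NCED2 (3.35) and NCED9 (2.94) were higher at 8.34 CPM or less. The response genes RD29B (2.27), RAB18 (2.15) and COR47 (1.51) were called higher. The sum of the list was 6584, 5673 and 6611 CPM in #17 and 6459, 6414 and 7956 CPM in #25, against 2022, 3928 and 1243 CPM in slim1-cr.

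Ethylene genes were mixed, 6 of 13 higher and 5 lower, or 3 lower without slim1-cr library 3 or with library size alone, against 31.5% higher and 33.4% lower among all genes. EIL1, of the same family as SLIM1, was lower, with 51.5 to 71.3 CPM (median 59) in the overexpressors, against 137, 94.8 and 113 CPM in slim1-cr and 77.6, 77.9 and 72.7 CPM in Col-0 (log2FC -0.92 ± 0.12 SE, adjusted p = 6.51e-05), and EIN3 had a log2FC of 0.28 (adjusted p = 0.0566). The synthase gene ACS2 had 3.16 to 17.3 CPM (median 7.18) in the overexpressors, against 2.17, 2.48 and 0.867 CPM in slim1-cr (log2FC 2.07 ± 0.38 SE, adjusted p = 7.74e-04), the response factor ERF1 a log2FC of 1.78 and the oxidase ACO1 of -1.26. EBF1 and EBF2, F-box proteins that degrade EIN3, were called in opposite directions at 1.14 and -0.49.

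For jasmonate, 11 of 24 genes were called higher and 0 lower, against 31.5% higher and 33.4% lower among all genes. This count depended on the scaling and on single libraries: it was 19 with library size alone and 17 without slim1-cr library 2 or without #17 library 2, and 2 genes were called lower without Col-0 library 3. LOX4, a lipoxygenase of jasmonate synthesis, had 472 to 1282 CPM (median 989) in the overexpressors, against 197, 372 and 81.3 CPM in slim1-cr (log2FC 2.14 ± 0.47 SE, adjusted p = 0.00208), and the repressor JAZ5 had 196 to 472 CPM (median 328) in the overexpressors, against 87.2, 159 and 44.2 CPM in slim1-cr (log2FC 1.77 ± 0.39 SE, adjusted p = 0.00242). The defensin PDF1.2 was called higher (log2FC 2.59, adjusted p = 0.0169), but not without slim1-cr library 2 (adjusted p = 0.0577). VSP1 (log2FC -1.25, adjusted p = 0.124) and VSP2 (log2FC -1.40, adjusted p = 0.136), storage proteins that jasmonate induces, did not pass the test. In salicylate synthesis and immunity only 3 of 14 passed, all higher, against 31.5% called higher among all genes: CBP60G (log2FC 1.6, adjusted p = 0.00319), PBS3 (log2FC 2.08, adjusted p = 0.0195) and EDS5 (log2FC 1.03, adjusted p = 0.00739). The PBS3 call ended without slim1-cr library 3 (adjusted p = 0.0698), and without it 2 other genes of the list were called lower. ICS1, which makes most of the salicylate, overlapped between the groups (log2FC 0.89, adjusted p = 0.15), as did the immune marker PR1 (log2FC -0.27, adjusted p = 0.646).

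Several stress and metabolism genes were among the strongest increases. NDB3, an external NADH dehydrogenase of mitochondria, had 2.88 to 7.68 CPM (median 5.62) in the overexpressors, against 0.118, 0.0703 and 0.2 CPM in slim1-cr (log2FC 5.40 ± 0.57 SE, adjusted p = 1.93e-05), and AOX1D, an alternative oxidase, had 28.5 to 67.7 CPM (median 54.1) in the overexpressors, against 4.02, 5.62 and 0.712 CPM in slim1-cr (log2FC 3.82 ± 0.52 SE, adjusted p = 1.08e-04). Of 10 genes of alternative respiration 6 were called higher and 2 lower. For this and the following lists, the shares among all genes were 31.5% higher and 33.4% lower. Among phosphate starvation genes 7 of 11 were higher and 1 lower: MGDC, a galactolipid synthase, had 6.62 to 12.4 CPM (median 7.81) in the overexpressors, against 0.78, 0.679 and 0.934 CPM in slim1-cr (log2FC 3.4 ± 0.30 SE, adjusted p = 6.59e-06), and the acid phosphatase PAP17 had 41.8 to 68.4 CPM (median 52.5) in the overexpressors, against 7.35, 7.07 and 5.36 CPM in slim1-cr (log2FC 3.02 ± 0.27 SE, adjusted p = 6.80e-06). Of 13 touch, wound and handling genes 8 were higher and 1 lower, with ERF11 (3.42), CBF3 (3.17) and CBF2 (2.93) at the top, while TCH3 (0.03) and TCH4 (-0.13) had log2FC near 0 and no call. Antioxidant enzymes and ferritins had 4 of 15 called each way, both below the shares among all genes (2 lower without slim1-cr library 1 or with library size alone, and 7 lower in 1 fit of all 39 libraries), with catalase CAT3 (log2FC 1.22, adjusted p = 6.52e-05) and ferritin FER1 (log2FC 1.39, adjusted p = 5.59e-05) higher and the plastid superoxide dismutase CSD2 lower (log2FC -1.52, adjusted p = 1.29e-04).

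Clock genes had 4 of 12 higher and 5 lower (3 lower without slim1-cr library 2 and 2 with library size alone), near the 31.5% higher and 33.4% lower among all genes, with a median of -0.02. ELF4 and PRR3 were higher at log2FC 2.44 and 1.65, while LUX, the partner of ELF4, was lower at -0.87. In flowering time, 7 of 22 were higher, near the share among all genes, and 5 lower (3 lower without slim1-cr library 1 or library 2, or with library size alone). TSF, the paralog of the florigen FT, had 1.24 to 2.63 CPM (median 1.97) in the overexpressors, against 0.0236, 0.211 and 0.0667 CPM in slim1-cr (log2FC 4.25 ± 0.60 SE, adjusted p = 1.25e-04), and FT itself overlapped between the groups (log2FC 0.43, adjusted p = 0.194). SPL15 was lower at 1.16 CPM or less (log2FC -3.80, adjusted p = 0.00109), and MAF5, a relative of FLC, was higher (log2FC 2.68, adjusted p = 0.00904).

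The 12 genes with the highest and the 12 with the lowest log2FC, among genes with a symbol in the annotation (which NLP3 lacks) that were called in both lines, had a mean log2 CPM above 1 and did not overlap between the groups, held further genes outside the lists. ADPG1, a polygalacturonase that acts when organs open or drop, had 1.6 to 9.63 CPM (median 3.58) in the overexpressors, against 0, 0.0469 and 0.0222 CPM in slim1-cr (log2FC 7.28 ± 0.88 SE, adjusted p = 4.78e-05). CSLG2, of the cellulose synthase-like family, had 46.6 to 126 CPM (median 72.4) in the overexpressors, against 1.84, 4.05 and 0.734 CPM in slim1-cr (log2FC 5.05 ± 0.55 SE, adjusted p = 2.49e-05). AHP4, of the cytokinin phosphorelay, had 18.2 to 27.2 CPM (median 24.8) in the overexpressors, against 0.284, 0.75 and 1.22 CPM in slim1-cr (log2FC 4.99 ± 0.45 SE, adjusted p = 7.17e-06). DAA1 (5.24), DIP2 (4.59) and NUDT24 (8.72) were also in the higher set, and NUDT24 was at 0 counts in 2 of the 3 slim1-cr libraries. At the lower end, the thionin THI2.2 had 0.0684 to 0.527 CPM (median 0.313) in the overexpressors, against 8.6, 8.01 and 8.67 CPM in slim1-cr (log2FC -5.06 ± 0.38 SE, adjusted p = 2.35e-06), the plastid fatty-acid-binding protein FAP3 had 0.145 to 1.44 CPM (median 0.42) in the overexpressors, against 19.6, 12.4 and 25.6 CPM in slim1-cr (log2FC -4.93 ± 0.57 SE, adjusted p = 3.52e-05) and SDD1, a protease that limits stomatal density, had 0.083 to 0.664 CPM (median 0.234) in the overexpressors, against 6.88, 2.93 and 7.72 CPM in slim1-cr (log2FC -4.59 ± 0.40 SE, adjusted p = 6.14e-06). The germin-like GER3 (-4.47), the ferredoxin-like FdC1 (-4.39) and the pectin methylesterase PME5 (-4.37) were lower with a larger SE.

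A pair of genes had no counts in 1 of the groups. ADT6, an arogenate dehydratase, had 0 counts in all 3 slim1-cr libraries and 7.19 to 13.4 CPM (median 9.73) in the overexpressors, at least 424-fold higher against a floor of 3 counts over the group. Its Col-0 values were 0.0464, 4.23 and 7.31 CPM. The gene overlaps TIL1 on the opposite strand, which was lower in the overexpressors (log2FC -1.76), so its value is uncertain. At 37 DAS the order was the other way, with 3.23, 3.09 and 0.776 CPM in #17 and 0, 0.111 and 0 CPM in #25, against 6.33, 4.51 and 8.35 CPM in slim1-cr. CIB1, a partner of cryptochrome, had 0 counts in all 6 overexpressor libraries, against 8.6, 13.3 and 9.16 CPM in slim1-cr and 12.9, 24.1 and 6.83 CPM in Col-0, at least 969-fold lower on the same floor. It overlaps AT4G34540 on the same strand, which leaves its counts uncertain. At 37 DAS it had 0.334, 0 and 3.61 CPM in #17 and 5.42, 0.646 and 5.88 CPM in #25, against 0, 0.744 and 0 CPM in slim1-cr. DIR1, a lipid transfer protein of systemic resistance, had 0.575, 0 and 1.86 CPM in #17 and 0, 0 and 0 CPM in #25, against 11.5, 9.51 and 7.52 CPM in slim1-cr (log2FC -7.64, adjusted p = 8.28e-04), and overlaps AT5G48480 on the opposite strand. Whether the counting used strand is not given in the sources used here.

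The difference at 44 DAS was not that of the earlier days. At 30 DAS, 1069 genes (5.27%) were higher and 1029 (5.08%) lower in the overexpressors than in slim1-cr, together 10.3% of 20274. At 37 DAS, 5223 (25.7%) were higher and 5262 (25.9%) lower, together 51.7% of 20296. In a fit of all 39 libraries, in which the levels by day below are also scaled, the log2FC of 44 DAS was above that of 37 DAS at 4391 genes (20.9%) and below it at 6404 (30.4%), together 51.3% of 21040. This balance turned with library size alone, which gave 6910 above and 4484 below and moved the median over all genes to 0.15, against -0.09. It came near to level without #17 library 2 of 44 DAS (5070 above and 5699 below) or #25 library 2 of 44 DAS (4959 and 5592). All 20 antenna genes were in the second set, where 1 of 20 had been called lower at 37 DAS. LHCB1.4 had 666, 432 and 2169.5 CPM in #17 and 2816, 1875 and 2541 CPM in #25 at 37 DAS, against 2039, 2076 and 2128 CPM in slim1-cr (log2FC -0.36, adjusted p = 0.466), a difference that shifted by -5.65 ± 0.55 (SE, adjusted p = 3.20e-09) by 44 DAS. The shift was also downward at 31 of 32 photosystem genes, 28 of 28 plastid ribosomal proteins, 24 of 25 genes of chlorophyll synthesis and 12 of 12 cell cycle genes. Unlike the antenna, 26 of the 28 ribosomal proteins and all 12 cell cycle genes were already called lower at 37 DAS. So were 14 of 25 genes of chlorophyll synthesis (1 was higher) and 11 of 32 photosystem genes.

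**Figure D5:**
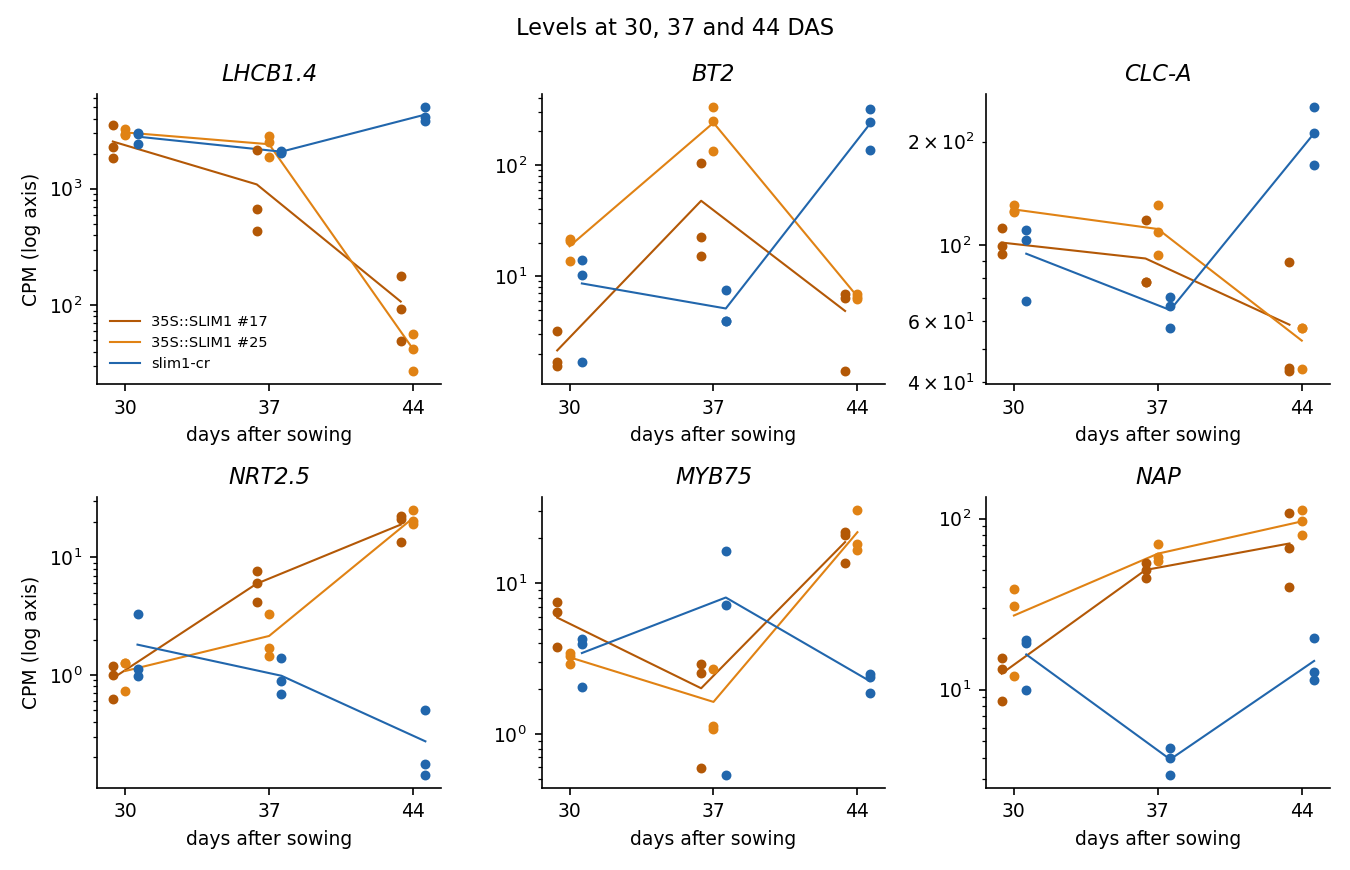
Level (CPM, log axis) of LHCB1.4, BT2, CLC-A, NRT2.5, MYB75 and NAP at 30, 37 and 44 DAS in #17, #25 and slim1-cr, each point 1 library and each line a group mean. BT2 is higher in the overexpressors at 37 DAS and lower at 44 DAS, and the LHCB1.4 points of the groups overlap at 30 and 37 DAS and are apart at 44 DAS.

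Regulators of senescence shifted less uniformly. Among all genes 25.7% were called higher and 25.9% lower at 37 DAS, and 20.9% then shifted upward and 30.4% downward. Of the 18 NAC factors, 13 were already called higher at 37 DAS. By 44 DAS the log2FC had shifted upward at 4 and downward at 6, near the shares among all genes. NAC6 was one of the 6, with a log2FC of 3.95 at 37 DAS and a shift of -2.17 (adjusted p = 9.81e-05). NAP, at 3.84 on 37 DAS, shifted by -1.34 (adjusted p = 0.012), a call that ended without slim1-cr library 1 of 44 DAS (adjusted p = 0.0696). For the WRKY factors 14 of 18 were higher at 37 DAS, and the shift was downward at 9 and upward at 1. In salicylate synthesis and immunity 12 of 14 were higher at 37 DAS, and the shift was downward at 7. PR1 had a log2FC of 2.37 at 37 DAS (adjusted p = 0.0101). Of the touch, wound and handling genes 13 of 14 were higher at 37 DAS, and the shift was downward at 8. Flavonoid enzymes moved the other way, with 2 of 29 higher and 11 lower at 37 DAS, and an upward shift at 18 of 30.

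Some genes were on opposite sides at the 2 days. BT2 had 22.7, 15.1 and 105 CPM in #17 and 251, 135 and 334 CPM in #25 at 37 DAS, against 3.92, 7.53 and 3.91 CPM in slim1-cr (log2FC 4.38, adjusted p = 0.00112), and its difference shifted by -9.75 ± 0.92 (SE, adjusted p = 1.62e-09). It was thus higher in every overexpressor library at 37 DAS and lower in every one at 44 DAS. CBF3 had log2FC of -2.07 at 37 DAS and 3.17 at 44 DAS (shift 5.25, adjusted p = 5.32e-10). CLC-A was at 0.64 and -1.92 (shift -2.57, adjusted p = 3.20e-08), NRT1.5 at -0.72 and 1.46 (shift 2.19, adjusted p = 3.81e-06), and PORA at 1.2 and -4.21 (shift -5.40, adjusted p = 2.09e-06). All of these were called at both days. MYB75 had 2.52, 2.91 and 0.599 CPM in #17 and 1.13, 2.7 and 1.07 CPM in #25 at 37 DAS, against 7.15, 0.538 and 16.5 CPM in slim1-cr, which spread widely (log2FC -2.13, adjusted p = 0.0508; shift 5.32, adjusted p = 8.27e-06). NRT2.5 was on the same side at both days, with a log2FC of 1.87 at 37 DAS (shift 4.35, adjusted p = 3.51e-06).

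The sulfur deficiency markers differed more uniformly at 30 DAS. At 30 DAS, 8 of 11 sulfur deficiency markers were called lower in the overexpressors than in slim1-cr and 0 higher, with a median log2FC of -1.01, where 5.08% of all genes were called lower. LSU3 had 10.8, 9.61 and 12.1 CPM in #17 and 7.69, 9.23 and 7 CPM in #25 at that day, against 47.8, 47.3 and 30.1 CPM in slim1-cr and 2.99, 4.73 and 2.56 CPM in Col-0 (log2FC -2.17, adjusted p = 0.00149). LSU1 had a log2FC of -1.75 (adjusted p = 0.00707) at 30 DAS and 0.02 (adjusted p = 0.932) at 37 DAS. At 44 DAS the ranges of the groups overlapped for both, as given above.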

How the data were processed

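The authors sequenced strand-specific polyadenylated RNA of 39 rosette libraries on a DNBseq platform, aligned the reads to TAIR10 with the Araport11 annotation in CLC Genomics at default settings, and deposited raw counts per gene. Whether counting used strand is not given in the sources used here. A second table deposited by the authors, normalized with DESeq2 1.40.2, was not used. Libraries were grouped by their labels. The 12 libraries of 44 DAS held 38352119 to 46022274 counts, a depth that limits precision most at genes of few counts.

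The counts were filtered with filterByExpr, scaled by trimmed-mean factors and fitted with robust quasi-likelihood models in edgeR 4.0.16 (R 4.3.3), with 1 mean per genotype. The contrast was the mean of both overexpressors minus slim1-cr. Each line against slim1-cr, #25 against #17 and both differences against Col-0 came from the same fit. The change between days was an interaction contrast in a fit of all 39 libraries. Benjamini-Hochberg adjustment ran over all genes of a contrast, with a threshold of 0.05. The study calls its replicates biological, and whether 1 library is 1 plant is not given in the sources used here. A check on counts simulated from the main fit was made before the alternative fits.

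The genes, gene lists and tests were chosen with earlier results of these data known. The rule for named genes took SLIM1, genes that the study names, the 12 highest and 12 lowest fold changes (symbol present, mean log2 CPM above 1, called in both lines, no overlap) and up to 3 called members of each list with the largest fold change. Other list members and the genes that differed between the lines or from Col-0 were chosen after their values were seen. Alternatives were DESeq2 1.42.0, relative-log-expression factors, library size alone, other low-count filters, a replicate block, other sets of libraries and leaving out each library. Promoter windows were read from the RefSeq annotation of TAIR10.1.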

Additional observations from a re-analysis of the deposited data

Results flagged for a closer look

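The overexpressor lines differed from each other at AT5G45360 by 6.22 on the log2 scale (#25 over #17, adjusted p = 0.00119) and at AT1G75170 by 0.68 (adjusted p = 0.0422), both in edgeR's quasi-likelihood test. At AT5G45360 the 3 libraries of #17 stood apart from all other genotypes. Groups of 3 libraries are too small for a check of single outlying samples, so none was made.

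Listed here are 21 genes whose difference between the overexpressors and slim1-cr was not the same at 44 and 37 DAS. They are SLIM1, genes that the study names and a few others. The test was of the change itself, in the fit of all 39 libraries, where 51.3% of 21040 genes were called. The few others were picked for a called change and for opposite signs called on both days, so their change was part of the choice. The values below are the log2FC at 44 DAS minus that at 37 DAS. It moved upward for SLIM1 (1.36), the autophagy gene ATG8B (1.31), the chlorophyll b reductase NYC1 (1.38) and CYP83B1 (1.08). In anthocyanin synthesis it moved upward for MYB75 (5.32), MYB90 (7.11), UGT73B2 (1.36), TT4 (2.3) and ABCC2 (0.88). Among nitrate transporters NRT2.5 (4.35), NRT1.5 (2.19) and NRT1.7 (1.51) moved upward and CLC-A (-2.57) downward. The NAC factors NAC6 (-2.17) and NAP (-1.34) moved downward, as did ATG18D (-1.75) and the tubulin gene TUA1 (-0.96).

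The sign of the difference itself was opposite on the 2 days for BT2 (change of -9.75), PORA (-5.40) and CBF3 (5.25), and also for CLC-A, NRT1.5, ATG18D and TUA1 above, with calls on both days. The 44 DAS call of TUA1 was lost in several alternatives, such as library size alone (adjusted p = 0.155) and without slim1-cr library 1 (adjusted p = 0.0942) or library 2 (adjusted p = 0.1585). ADT6, opposite as well, changed by a fitted 16.11, a size that depends on the prior count because all 3 slim1-cr libraries of 44 DAS were at 0. The shift of NAP was not called without slim1-cr library 1 of 44 DAS (-1.02, adjusted p = 0.0696), and that of CYP83B1 not without slim1-cr library 3 of 37 DAS (0.80, adjusted p = 0.0760) or of 44 DAS (0.90, adjusted p = 0.0511). What sets these changes was not tested, and plant age and harvest day cannot be told apart.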

How the results depend on the processing

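No call of a named gene reversed under any alternative. Of 2873 pairs of a named gene and an alternative, 2844 kept direction and side of the threshold, 25 lost the call and 4 gained it. Leaving out each library in turn gave 11777 to 13368 genes for the overexpressors against slim1-cr, 10023 to 11807 for #17 and 11260 to 12856 for #25, with the lowest count without slim1-cr library 1 in the main comparison and for #17, and without #25 library 3 for #25. The change from 37 to 44 DAS gave 9758 to 10941 genes. The gene lists held 425 calls, and 389 to 429 when a library was left out.

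For #25 against #17, where 2 genes were called, every fit without 1 library called 1 gene higher and 0 lower. Relative-log-expression factors, library size alone, no low-count filter and the 9 libraries alone also called 1. DESeq2 called 120 (36 higher and 84 lower), and all 39 libraries in 1 fit called 71 (12 higher and 59 lower). With library size alone, 6910 genes shifted upward and 4484 downward between 37 and 44 DAS, against 4391 and 6404. The causes were not tested.

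Replicate numbers did not pair the libraries, since correlations of same-numbered deviations ran from -0.52 to 0.34. With the replicate block, 12946 genes were called for the overexpressors against slim1-cr, 11094 for #17, 12294 for #25, 1 for #25 against #17 (higher) and 10804 for the change between days. Among named genes the block gave SAG12 a call (log2FC 6.17, adjusted p = 0.0166) and ended those of AP1 (-1.63, adjusted p = 0.0565) and of AT1G75170 between the lines (adjusted p = 0.0665), and changed no other. With 3 libraries a group, differences in genes of a few counts limit what can be detected.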
